A study of Drosophila melanogaster with 9 samples.

Results

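Larvae of the Drosophila melanogaster strain tuSz1 were compared with larvae of w1118. The comparison holds 6 of the 9 libraries of the series, 3 from tuSz1 and 3 from w1118, chosen by the genotype in their titles. Each library was made from total RNA of 20 pooled whole larvae grown at 28 °C, and the labels call the 3 libraries of a genotype biological replicates. The remaining 3 libraries, from hopTum larvae, entered the fit and are not described. They took part in choosing which genes were tested, in the scaling and in estimating the spread between replicates.

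tuSz1 is a temperature-sensitive strain whose blood cells surround and melanize the animal's own fat body, a loss of self-tolerance. From earlier work the strain is known for an overactive form of the JAK kinase, encoded by hopscotch (hop), together with loss of function of GCS1, a glucosidase that trims N-glycans on newly made proteins. w1118 is a white-eyed laboratory strain with a deletion in white (w), used here as the control. The labels do not give the age, stage or sex of the larvae, nor say that the strains share a genetic background, so a difference in any of these and one from the mutations cannot be told apart.

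Drosophila larvae defend themselves through blood cells, through the fat body, which secretes antimicrobial peptides, and through the gut and cuticle. Plasmatocytes engulf particles, crystal cells store the prophenoloxidases that start melanization, and lamellocytes, flat cells that are rare in undisturbed larvae, wrap around objects too large to engulf. The JAK/STAT pathway is known to drive lamellocyte formation and the Turandot stress peptides, while the Toll and IMD pathways induce distinct sets of antimicrobial peptides.

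Total counts were 12041845, 13569934 and 14517286 in tuSz1 replicates 1 to 3, against 10900402, 10973053 and 10387052 in w1118. Values are given as CPM, read counts scaled to a common library size, after trimmed-mean (TMM) scaling, a correction for transcripts that fill a large part of a library. On that scale 3 counts, the floor used here for a gene at 0, came to 0.2 to 0.357 CPM by library, which covers counting error only. Counts were deposited per transcript. Of 7320 genes with several listed transcripts 32.1% were at 0 in all 9 libraries, against 11.5% of 9668 genes with 1 transcript. A gene at 0 is therefore called listed at 0 and not unexpressed. The genes with several transcripts took 5.99% of all counts of the 9 libraries, against 93.6% for those with 1. Their values may hold only part of a gene's reads, and a change in which transcripts are made was not tested.

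One library stood apart. tuSz1 replicate 3 had almost no counts of the Sgs glue genes, with Sgs3 at 3.57 CPM against 15584 and 12370 CPM in tuSz1 replicates 1 and 2. The list of 12 glue genes, which also holds the new-glue genes, took 0.33% of its counts. That share was 5.76% and 5.60% in tuSz1 replicates 1 and 2 and 7.26% to 10.9% in w1118. Most of the 0.33% came from new-glue genes, with ng3 alone at 3848 of the 5623 CPM of the list. The TMM factor of tuSz1 replicate 3 was 0.578, against 0.874 and 0.843 in the other tuSz1 libraries and 1.25 to 1.37 in w1118. Counts of calls that this library moved are given with and without it.

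Of the genes that mark the strains, w was at 91.3, 75.1 and 136 CPM in tuSz1 and at 1.76, 1.87 and 3.18 CPM in w1118 (log2 fold change 5.47, SE 0.38, edgeR adjusted p = 3.36e-06). That difference matched the label of the w1118 libraries. hop was at 172, 168 and 192 CPM in tuSz1, against 139, 158 and 135 CPM in w1118, and did not pass the test (log2 fold change 0.30, SE 0.32, edgeR adjusted p = 0.592). GCS1 was listed at 0 in all libraries. Counts do not show an allele, so neither gene checks the tuSz1 label.

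Across all genes, 1485 of 9106 tested (16.3%) differed at an adjusted p under 0.05 in edgeR's quasi-likelihood test. Of them 909 (9.98% of tested genes) were higher and 576 (6.33%) lower in tuSz1. The counts of each list below are to be read against these shares. The 3 values of tuSz1 did not overlap the 3 of w1118 in 3514 tested genes (38.6%). The median log2 fold change of all tested genes was 0.08. Leaving out tuSz1 replicate 3 gave 1010 calls of 9561 genes tested (10.6%), 573 higher (5.99%) and 437 lower (4.57%). The counts were 786 without w1118 replicate 2 and 857 without w1118 replicate 3, and 662 genes were called in the full fit and in all 6 fits that each left out 1 library, 405 higher and 257 lower. The excess of higher over lower calls depended on scaling. With the 50 most counted genes left out of the scaling 48.6% of called genes were higher, against 61.2% under TMM. Scaling to total counts moved the median of all genes by -0.77 on the log2 scale, to -0.70, and left 19.8% of 2182 calls higher. Such a change of scaling shifts all genes by a similar amount, so a list's position relative to the median of all genes could hardly move. Relative to that median, the median of each of the 50 gene lists kept its sign and moved by -0.18 to 0.16, which is no check on the scaling. The 4 large autosomal arms had between 16.1% (2L) and 18.1% (2R) of their tested genes called, the X chromosome 11.2% of 1413, and none of the 13 mitochondrial genes was called.

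**Figure D1:**
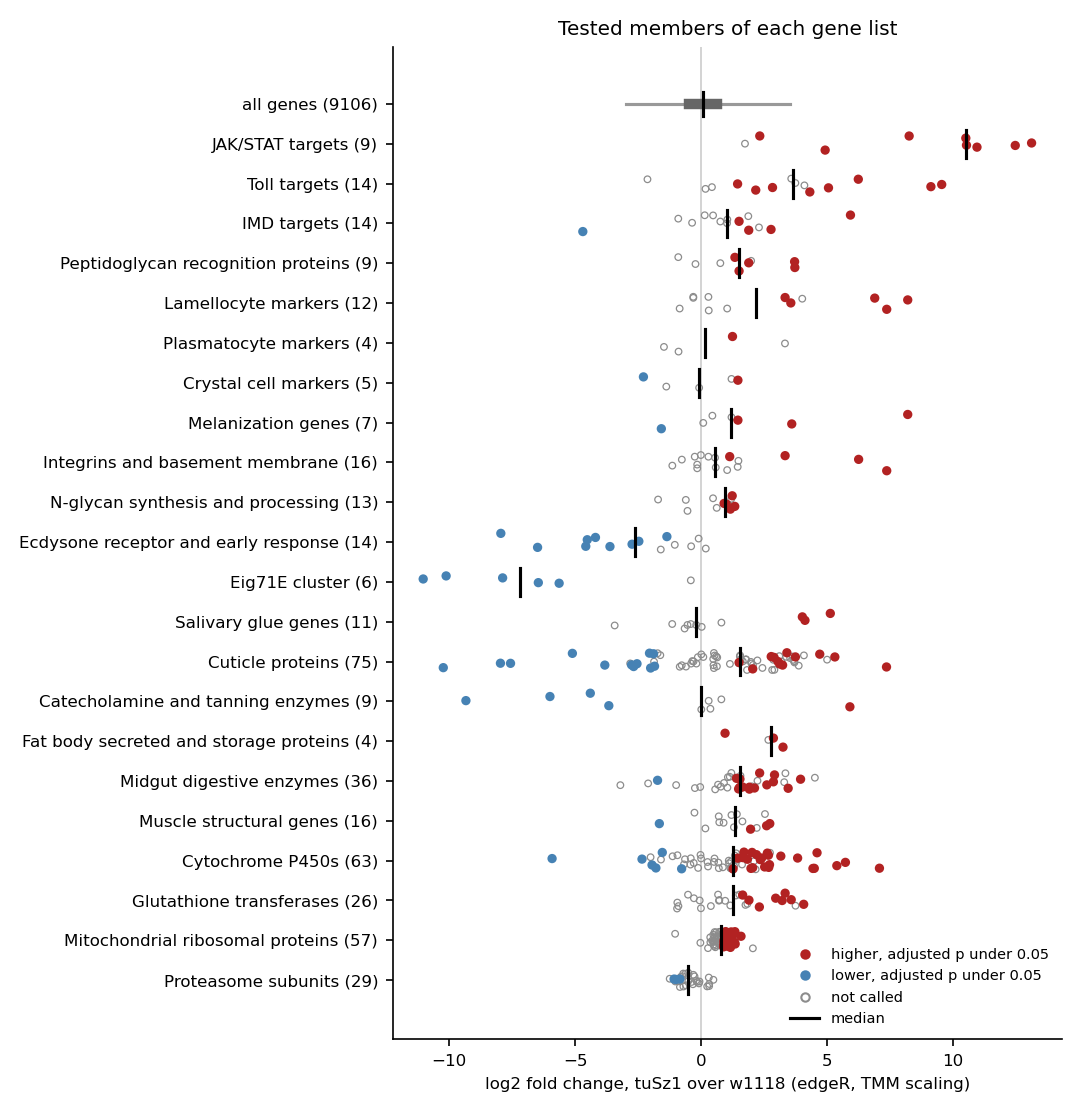
Log2 fold change of tuSz1 over w1118 (x axis) for every tested member of 22 gene lists (rows, number tested in brackets), with called members filled and list medians as black bars. The top row shows all 9106 tested genes as median, middle 50% and middle 95%. JAK/STAT targets lie furthest to the right of it, with a median of 10.5, and the Eig71E cluster furthest to the left, with a median of -7.18.

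The JAK/STAT targets had the highest median change of the lists. Of 12 listed targets 9 were tested, and 8 were called higher and none lower, with a median log2 fold change of 10.5 against 0.08 over all genes, of which 9.98% were called higher. With the 3 genes at 0 in w1118 set to their lower bound, the median was 8.16. They were 7 Turandot genes, which encode small secreted peptides released into the blood under stress, and Tep1, a thioester-containing protein that marks foreign surfaces. Ptp61F, a phosphatase that restrains the pathway, was at 2.28, 1.92 and 0.83 CPM in tuSz1 and 0.29, 0.13 and 1.09 CPM in w1118 and was not called (edgeR adjusted p = 0.161). It was again 8 of 9 without tuSz1 replicate 3.

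TotA, on chromosome 3R at 20871036 to 20871700 (dm6), was at 14915, 22161 and 18288 CPM in tuSz1, against 450.5, 677 and 701 CPM in w1118 (log2 fold change 4.92, SE 0.41, edgeR adjusted p = 1.40e-05). TotC, its neighbour at 20872988 to 20873580, was at 3553, 6808 and 4183 CPM in tuSz1 and at 1.10, 1.6 and 4.63 CPM in w1118 (log2 fold change 10.95, SE 0.73, edgeR adjusted p = 2.20e-06). Both genes were high in all 3 tuSz1 libraries, with no overlap. TotZ was at 75.5, 138 and 73.3 CPM in tuSz1 and at 0 in each w1118 library, at least 449-fold higher against the floor over the group. TotE was at 14.6, 20.2 and 12.9 CPM in tuSz1 and at 0 in w1118, at least 74.8-fold higher. TotX was at 68.9, 109 and 4.41 CPM in tuSz1 and at 0 in w1118, and its call was lost without tuSz1 replicate 1 and without w1118 replicate 2. TotF, with 2 counts over the w1118 libraries, stood at a ratio of 1819 (95% counting interval 503 to 15029). The Turandot genes form a family of similar sequences, and how the counting divided reads between copies is not given in the sources used here.

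Among the pathway's own components 1 of 9 tested (11.1%) was called higher, close to the 9.98% of all genes called higher. upd3, a secreted cytokine that activates the receptor, was at 17.7, 11.2 and 16.0 CPM in tuSz1 and at 2.5, 0.40 and 1.16 CPM in w1118 (log2 fold change 3.46, SE 0.62, edgeR adjusted p = 0.00328). The receptor gene dome was at 513, 349 and 322 CPM in tuSz1 and 238, 126 and 148 CPM in w1118, without overlap, and missed the threshold (edgeR adjusted p = 0.0601). Stat92E, the transcription factor, had overlapping values of 37.2 to 43.5 CPM in tuSz1 and 30.4 to 42.6 CPM in w1118. Socs36E, a feedback inhibitor, was listed at 0 in all libraries.

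Toll targets had members called higher as well. Of 18 listed genes 14 were tested, and 8 were called higher and none lower, with a median of 3.66. Without tuSz1 replicate 3 it was 7, with a median of 2.78, and without w1118 replicate 2 it was 5. The Bomanins, short peptides that the fat body secretes against fungi and Gram-positive bacteria, made up most of the calls. BomS1 was at 12.9, 21.8 and 15.8 CPM in tuSz1 and 0.22, 0.13 and 0.29 CPM in w1118 (log2 fold change 6.24, SE 0.94, edgeR adjusted p = 0.0015). BomT1 was at 11.2, 8.57 and 4.29 CPM in tuSz1 and at 0 in w1118, at least 37.8-fold higher. BomS4, at 5.04, 6.91 and 5.96 CPM in tuSz1 and 0 in w1118, was at least 28.1-fold higher. Each tuSz1 value of the 3 Bomanins lay above each w1118 value, at low levels. The antifungal peptides Drosomycin and Metchnikowin were not called. Drs was at 97.5, 71.5 and 8.46 CPM in tuSz1 and 38.0, 21.9 and 98.1 CPM in w1118, and Mtk, at 4.09, 11.5 and 0.24 CPM in tuSz1 and 11.9, 4.67 and 54.0 CPM in w1118, had overlapping groups as well (edgeR adjusted p = 0.936 and 0.386).

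Of 10 tested Toll components 1 (10%) was called higher, close to the 9.98% of all genes called higher. It was SPE, the protease that activates the Toll ligand. SPE was at 64.0, 99.3 and 185 CPM in tuSz1, against 18.4, 15.1 and 15.5 CPM in w1118 (log2 fold change 2.83, SE 0.39, edgeR adjusted p = 5.46e-04). GNBP1, a recognition protein, was at 62.3, 73.7 and 89.8 CPM in tuSz1 and 47.7, 50.8 and 56.9 CPM in w1118 and did not pass (edgeR adjusted p = 0.146). The ligand gene spz was listed at 0 in all libraries.

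IMD targets gave a mixed picture. Of 14 tested genes 4 were called higher and 1 lower, with a median of 1.03. Without tuSz1 replicate 3 there were 3 and 1, and without w1118 replicate 2 there were 2 and 1. AttA, an antibacterial Attacin, was at 90.7, 54.0 and 50.5 CPM in tuSz1 and 0.51, 1.00 and 1.66 CPM in w1118 (log2 fold change 5.93, SE 0.65, edgeR adjusted p = 1.21e-04). CecC, a Cecropin, was at 9.03, 8.48 and 4.77 CPM in tuSz1 and 2.13, 0.27 and 0.87 CPM in w1118 (log2 fold change 2.77, SE 0.57, edgeR adjusted p = 0.00672). pirk, an inhibitor of the pathway, went the other way, at 0, 0.44 and 0 CPM in tuSz1 and 4.93, 3.60 and 4.63 CPM in w1118 (log2 fold change -4.70, SE 1.08, edgeR adjusted p = 0.0123). The Diptericins, the peptides by which IMD activity is most often read, had overlapping groups: DptA was at 16.7, 49.8 and 3.81 CPM in tuSz1 and 6.47, 8 and 49.7 CPM in w1118. None of the 6 tested IMD signalling components was called.

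Of 9 tested peptidoglycan recognition proteins 5 were called higher, none without w1118 replicate 3, and 2 each without tuSz1 replicate 3, w1118 replicate 1 and w1118 replicate 2. Those left without tuSz1 replicate 3 were PGRP-SC1b and PGRP-LB, enzymes that degrade peptidoglycan and dampen the response to gut bacteria. PGRP-LB was at 25.4, 24.9 and 46.4 CPM in tuSz1 and 13.5, 8.67 and 3.98 CPM in w1118 (log2 fold change 1.89, SE 0.46, edgeR adjusted p = 0.0159). That call was lost without w1118 replicate 2, without w1118 replicate 3 and under total count scaling.

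**Figure D2:**
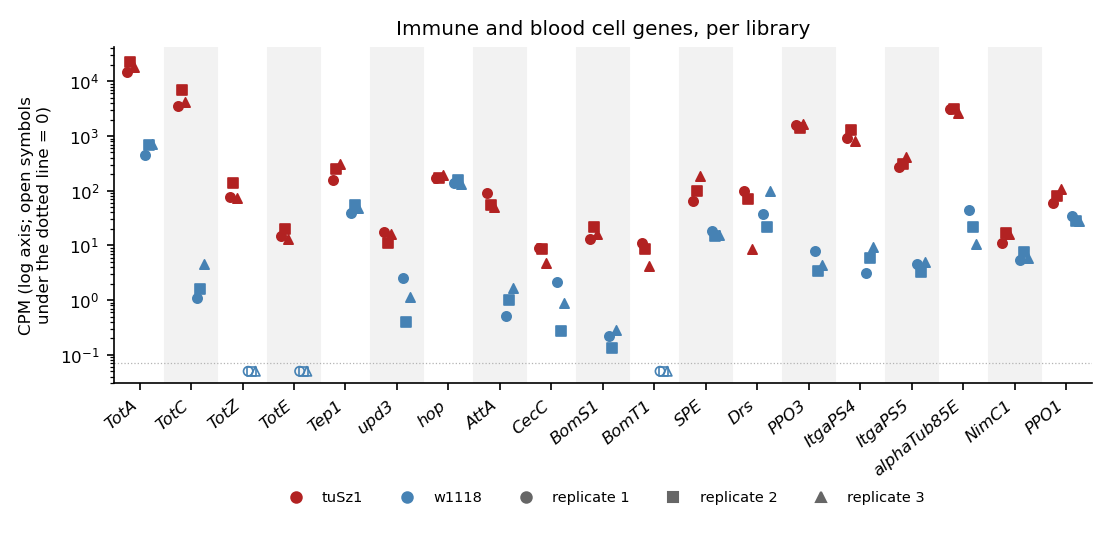
CPM in each library on a log axis for JAK/STAT, IMD and Toll genes and blood cell markers, tuSz1 left of w1118 within each gene, with a symbol shape per replicate and open symbols for a count of 0. TotZ, TotE and BomT1 were at 0 in all w1118 libraries, PPO3, ItgaPS4, ItgaPS5 and alphaTub85E were separated by more than an order of magnitude, and the values of Drs overlapped.

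Lamellocyte markers were the blood cell genes that differed most. Of 12 tested markers 5 were called higher and none lower, with and without tuSz1 replicate 3, and the summed level of the list was 5493 to 6125 CPM in tuSz1 and 338 to 372 CPM in w1118. PPO3, the prophenoloxidase of lamellocytes, was at 1572, 1395 and 1688 CPM in tuSz1 and 8.01, 3.47 and 4.34 CPM in w1118 (log2 fold change 8.20, SE 0.50, edgeR adjusted p = 1.41e-06). ItgaPS4, an integrin alpha subunit, was at 939.5, 1284 and 819 CPM in tuSz1, against 3.16, 6 and 9.26 CPM in w1118 (log2 fold change 7.36, SE 0.51, edgeR adjusted p = 3.49e-06). alphaTub85E, an alpha-tubulin that other tissues also make, was at 3168, 3181 and 2628 CPM in tuSz1 and 43.9, 21.3 and 10.5 CPM in w1118 (log2 fold change 6.89, SE 0.61, edgeR adjusted p = 2.28e-05). Every tuSz1 value lay far above every w1118 value for the 3 genes. The surface protein atilla, which defines the cell type, and betaTub60D were listed at 0 in all libraries. The markers msn, cher, rhea, shot and puc, which other tissues also use, were not called and overlapped between the genotypes. In whole-larva RNA more cells of a type and more RNA per cell cannot be told apart.

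Plasmatocyte and crystal cell markers did not move together. Of 4 tested plasmatocyte markers 1 was called higher: NimC1, a phagocytosis receptor, at 11.1, 17.0 and 16.1 CPM in tuSz1 and 5.37, 7.47 and 6.01 CPM in w1118 (log2 fold change 1.23, SE 0.34, edgeR adjusted p = 0.0282). It was lost in 5 of the 6 fits that left out a library. eater, another receptor, was at 33.5, 53.2 and 11.2 CPM in tuSz1 and 30.4, 71.1 and 81.4 CPM in w1118 and was not called. The summed plasmatocyte list was 28.8 to 70.6 CPM in tuSz1 and 37.9 to 89.4 CPM in w1118, and its defining markers Hml, NimC2 and He were listed at 0. Of 5 tested crystal cell markers, PPO1 was called higher, at 58.5, 79.7 and 107 CPM in tuSz1 and 34.0, 27.4 and 27.7 CPM in w1118, a call lost without tuSz1 replicate 3. fok was called lower, at 61.8, 47.5 and 46.1 CPM in tuSz1 and 219, 279 and 264 CPM in w1118 (log2 fold change -2.29, SE 0.33, edgeR adjusted p = 7.13e-04). lz, the transcription factor that defines crystal cells, had overlapping values of 0.35 to 0.83 CPM in tuSz1 and 0.27 to 2.87 CPM in w1118.

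Among 7 tested melanization genes 3 were called higher and 1 lower, and 2 and 1 without tuSz1 replicate 3. Besides PPO3 and PPO1, yellow-f2, which converts dopachrome in the melanin pathway, was at 22.2, 29.9 and 82.9 CPM in tuSz1 and 6.62, 1.87 and 2.68 CPM in w1118 (log2 fold change 3.59, SE 0.69, edgeR adjusted p = 0.00507). PPO2, the crystal cell prophenoloxidase, overlapped between the genotypes. The lower one was Sp7, a protease that activates prophenoloxidase, at 2.19, 1.40 and 3.22 CPM in tuSz1 and 4.93, 5.47 and 9.92 CPM in w1118, with a call lost in 4 of the 6 fits that left out a library.

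Of 16 tested genes for integrins and basement membrane, the sheet around tissues that blood cells inspect, 4 were called higher, all also without tuSz1 replicate 3. Besides ItgaPS4 they were ItgaPS5, mew and Mmp1. ItgaPS5, another integrin alpha subunit, was at 272, 306 and 415 CPM in tuSz1 and 4.63, 3.33 and 5.07 CPM in w1118 (log2 fold change 6.25, SE 0.40, edgeR adjusted p = 1.92e-06). mew, the alpha subunit PS1, was at 59.7, 58.5 and 59.9 CPM in tuSz1 and 27.8, 29.3 and 24.2 CPM in w1118 (log2 fold change 1.13, SE 0.26, edgeR adjusted p = 0.0135). The matrix protease Mmp1, a target of stress signalling, was at 6.18, 5.86 and 4.65 CPM in tuSz1 and 0.37, 0.40 and 0.87 CPM in w1118. Of the structural matrix proteins, LanA was at 1129, 1282 and 1688 CPM in tuSz1 and 1337, 1388 and 1417 CPM in w1118, trol and LanB1 overlapped as well, and vkg was listed at 0. The list median lay 0.48 above that of all genes under TMM and 0.40 above it under total count scaling. A change of scaling hardly affects that distance.

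Genes of N-glycan synthesis and processing, the route to which GCS1 belongs, had called members in 1 direction. Of 13 tested 5 (38.5%) were called higher and none lower, against 9.98% of all genes called higher, and the median was 0.95. The count depended on single libraries, with 2 called without tuSz1 replicate 3, 2 without w1118 replicate 3, 3 without tuSz1 replicate 2 or w1118 replicate 1, and none without w1118 replicate 2. Ost48, a subunit of the transferase that attaches N-glycans, was at 742, 526 and 1214 CPM in tuSz1 and 435, 285 and 266 CPM in w1118 (log2 fold change 1.33, SE 0.36, edgeR adjusted p = 0.0248). wol, which charges the lipid carrier with glucose, was at 264, 291 and 257 CPM in tuSz1 and 129.7, 151 and 151 CPM in w1118 (log2 fold change 0.91, SE 0.23, edgeR adjusted p = 0.0194). No member was called higher under total count scaling, and 1 was called lower. The list median there lay 0.83 above that of all genes, against 0.87 under TMM, a distance that a change of scaling hardly affects. Of 10 tested genes of folding and stress in the endoplasmic reticulum, the chaperone Gp93 was called higher, at 3984, 3752 and 6188 CPM in tuSz1 and 1581, 1052 and 845 CPM in w1118 (log2 fold change 2.001, SE 0.44, edgeR adjusted p = 0.0093). The other called member was ERp60, lost in all 6 fits that left out a library, and the list median was 0.56. The sensor Ire1 was at 143, 185 and 226 CPM in tuSz1 and 149, 202 and 172 CPM in w1118.

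Most tested genes of the early response to ecdysone fell in tuSz1. Ecdysone, the steroid hormone of moulting, is known to act through a receptor that switches on early genes, many of them transcription factors, which then set off the glue secretion, cuticle change and tissue remodelling of metamorphosis. Of 14 tested genes of the receptor and early response 9 (64.3%) were called lower and none higher, against 6.33% of all genes called lower, with a median of -2.61; without tuSz1 replicate 3 it was 8, with a median of -2.67. The summed list was 320 to 475 CPM in tuSz1 and 2779 to 4063 CPM in w1118.

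br, which encodes the Broad transcription factors of pupal commitment, was at 144, 79.8 and 95.7 CPM in tuSz1 and 619, 628 and 899 CPM in w1118 (log2 fold change -2.75, SE 0.33, edgeR adjusted p = 2.25e-04). Eip78C, an early nuclear receptor on 3L at 21226609 to 21266503, was at 0.95, 1.05 and 0.95 CPM in tuSz1 and 106, 60.1 and 104 CPM in w1118 (log2 fold change -6.50, SE 0.80, edgeR adjusted p = 4.19e-04). Eip75B, another, was at 60.1, 34.9 and 72.4 CPM in tuSz1 and 326, 267 and 339 CPM in w1118. All 3 genes were low in every tuSz1 library. Blimp-1, a repressor that times the prepupal stage, was at 4.28, 0.52 and 2.62 CPM in tuSz1 and 57.1, 57.4 and 56.0 CPM in w1118 (log2 fold change -4.52, SE 0.77, edgeR adjusted p = 0.00293). ImpE3, induced by ecdysone in imaginal discs, was at 8.18, 11.7 and 9.06 CPM in tuSz1 and 126, 124 and 283 CPM in w1118 (log2 fold change -4.20, SE 0.40, edgeR adjusted p = 3.88e-05). ImpE2, another disc gene, was at 123, 86.0 and 5.24 CPM in tuSz1 and 1541, 1441 and 2151 CPM in w1118, so replicate 3 was the lowest of its genotype. Hr3 was at 0 in all tuSz1 libraries and at 3.46, 2.07 and 2.46 CPM in w1118, at least 8.82-fold lower. The receptor gene EcR itself was at 11.8, 7.87 and 4.65 CPM in tuSz1 and 18.7, 23.4 and 20.6 CPM in w1118, a call lost in 5 of the 6 fits that left out a library. None of 10 tested genes of ecdysone synthesis and breakdown was called; spok, which acts in the prothoracic gland, was at 29.5, 24.7 and 28.5 CPM in tuSz1 and 13.1, 23.1 and 21.2 CPM in w1118.

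The Eig71E cluster, small ecdysone-induced genes of the late salivary gland, fell with them. Of 6 tested members 5 were called lower, with and without tuSz1 replicate 3, and the median was -7.18, or -5.93 with the 2 genes at 0 in tuSz1 set to their bound. Eig71Ea was at 4.28, 3.50 and 0 CPM in tuSz1 and 93.1, 199 and 105 CPM in w1118 (log2 fold change -5.64, SE 0.93, edgeR adjusted p = 0.0041). Eig71Eg had 2 counts in all over the tuSz1 libraries and was at 8.60, 29.7 and 15.8 CPM in w1118, a ratio of 279 (95% counting interval 77.1 to 2311). Eig71Ec was at 0 in tuSz1 and 8.53, 54.5 and 4.78 CPM in w1118, at least 74.9-fold lower. Eig71Ee, which is also a glue gene, was the exception at 5910.0, 4656 and 3.81 CPM in tuSz1 and 2439.6, 4042 and 7589 CPM in w1118. Its first 2 tuSz1 values lay within the w1118 range, while replicate 3 had nearly none.

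The glue genes, which larvae use to fix the puparium, showed the same split inside tuSz1. Sgs3 was at 15584, 12370.3 and 3.57 CPM in tuSz1 and 18625, 24901 and 18578 CPM in w1118. With all libraries none of the Sgs genes was called, and without tuSz1 replicate 3 Sgs1 was called higher, at 2564 and 2893 CPM in the remaining tuSz1 libraries and 856, 1228 and 1047 CPM in w1118, and Sgs5bis lower, at 1171 and 1209 CPM in tuSz1 and 7643, 14107 and 4025 CPM in w1118 (edgeR adjusted p = 0.0166 and 0.00924). The new-glue genes did not follow the Sgs genes. ng2 was at 401, 688 and 1141 CPM in tuSz1 and 38.5, 9.60 and 15.8 CPM in w1118 (log2 fold change 5.13, SE 0.66, edgeR adjusted p = 5.03e-04). ng3 was at 2145, 2135 and 3848 CPM in tuSz1 and 293, 132 and 77.8 CPM in w1118 (log2 fold change 4.02, SE 0.60, edgeR adjusted p = 9.63e-04). Both were highest in tuSz1 replicate 3, the library with almost no Sgs counts.

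**Figure D3:**
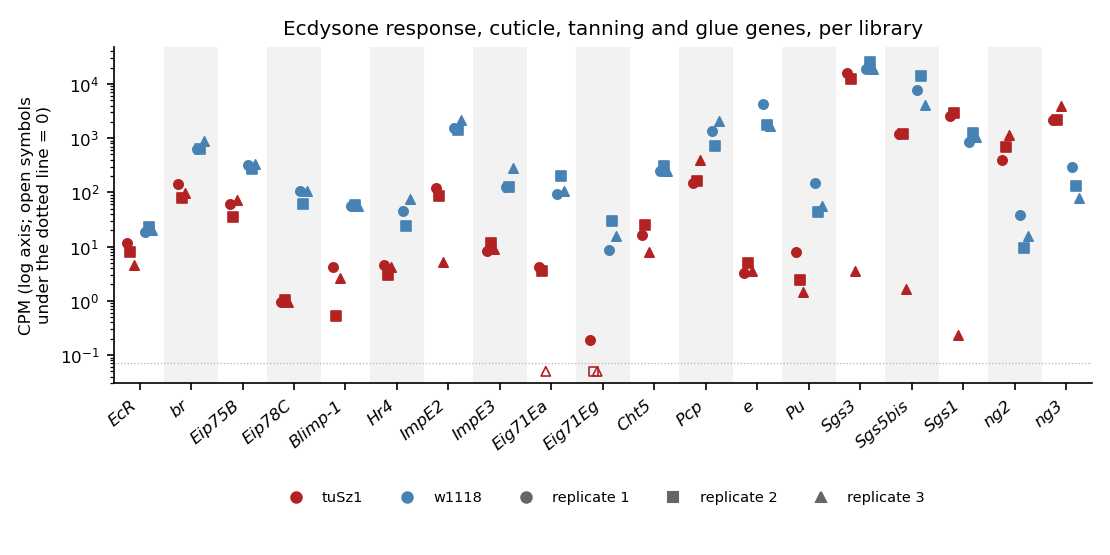
CPM in each library on a log axis for genes of the ecdysone response, cuticle, tanning and glue, tuSz1 left of w1118 within each gene, with a symbol shape per replicate and open symbols for a count of 0. The first 14 genes were lower in all 3 tuSz1 libraries, whereas for Sgs3, Sgs5bis and Sgs1 replicate 3 alone lay near 0 and for ng2 and ng3 all tuSz1 values were above those of w1118.

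Cuticle proteins changed in both directions. Of 75 tested genes of 123 listed, 12 were called higher and 12 lower, with a median of 1.53; without tuSz1 replicate 3 there were 4 and 12, with a median of 0.37. Without w1118 replicate 2 there were 4 and 10, and without w1118 replicate 3 there were 2 and 9. Cpr49Ac was at 25.9, 21.0 and 16.6 CPM in tuSz1 and 589, 603 and 1007 CPM in w1118 (log2 fold change -5.11, SE 0.42, edgeR adjusted p = 1.32e-05). Cpr49Ab was at 0 in tuSz1 and 15.7, 8.73 and 14.6 CPM in w1118, at least 43.1-fold lower. Pcp, a pupal cuticle protein, was at 151, 162 and 389 CPM in tuSz1 and 1330.0, 729.9 and 2050.2 CPM in w1118. Cpr50Cb was the clearest in the other direction, at 5.42, 3.76 and 7.63 CPM in tuSz1 and 0, 0.067 and 0 CPM in w1118, a ratio of 229 (95% counting interval 40.6 to 9108). Several higher members, such as Lcp65Ag2 at 4.28, 6.30 and 34.1 CPM in tuSz1 and 1.32, 0.40 and 1.59 CPM in w1118, were highest in tuSz1 replicate 3 and lost their call without it.

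Of 20 tested genes of chitin synthesis, binding and turnover 4 were called lower and 2 higher, against 6.33% and 9.98% of all genes. Without tuSz1 replicate 3 it was 3 and 2, and the lowest counts were 1 called lower without tuSz1 replicate 1 and 2 without tuSz1 replicate 2, w1118 replicate 2 or w1118 replicate 3. Cht5, a chitinase that digests old cuticle at a moult, was at 16.1, 24.7 and 7.98 CPM in tuSz1 and 251, 303 and 249 CPM in w1118 (log2 fold change -4.04, SE 0.48, edgeR adjusted p = 2.12e-04). knk, which protects new chitin, was at 6.75, 9.97 and 10.7 CPM in tuSz1 and 22.7, 30.1 and 34.4 CPM in w1118. Idgf5, a chitinase-like secreted protein, was higher, at 157, 206 and 232 CPM in tuSz1 and 50.9, 36.7 and 60.7 CPM in w1118 (log2 fold change 2.004, SE 0.30, edgeR adjusted p = 0.00109).

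Among the enzymes that harden and colour cuticle from catecholamines 4 fell. Of 9 tested, ple, Ddc, Pu and e were called lower and y, needed for black pigment, higher; without tuSz1 replicate 3 all but e were. ple, tyrosine hydroxylase, was at 0.38, 0 and 0 CPM in tuSz1 and 8.46, 2.60 and 16.2 CPM in w1118. Ddc, which makes dopamine, was at 0.95, 0.44 and 1.67 CPM in tuSz1 and 14.7, 13.1 and 10.6 CPM in w1118 (log2 fold change -3.67, SE 0.65, edgeR adjusted p = 0.003). Pu, which acts in making the cofactor of ple, was at 7.89, 2.45 and 1.43 CPM in tuSz1 and 151, 43.3 and 56.6 CPM in w1118 (log2 fold change -4.40, SE 0.77, edgeR adjusted p = 0.00384). ple and Ddc are the steps from tyrosine to dopamine. e (ebony), which couples dopamine to beta-alanine for tanning, was at 3.23, 5.07 and 3.57 CPM in tuSz1 and 4348, 1726 and 1668 CPM in w1118 (log2 fold change -9.34, SE 1.90, edgeR adjusted p = 0.0157). Its groups lay far apart in every library, yet the call was lost in each fit that left out a tuSz1 library (edgeR adjusted p = 0.0968 without replicate 3). y was at 7.80, 5.42 and 35 CPM in tuSz1 and 0, 0.40 and 0.36 CPM in w1118.

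Transcripts of the fat body, midgut and muscle filled more of the tuSz1 libraries. The 10 genes with the largest gain in mean CPM took 26.4% ± 3.78 of counts in tuSz1 and 9.20% ± 0.95 in w1118 (SD, n = 3 each). They were Lsp1gamma, CG18180, Lsp1alpha, Act57B, Mlc2, Jon65Aiv, Jon99Cii, TotA, Jon65Aiii and mt:CoI, of which Lsp1alpha, Mlc2 and mt:CoI were not called. The 10 with the largest loss, Sgs3, Sgs5bis, CG6770, CG34227, Sgs8, e, CG11912, CG5391, Arc1 and ImpE2, took 2.22% ± 1.63 in tuSz1 and 9.11% ± 1.14 in w1118. Only e, CG11912, CG5391 and ImpE2 of them were called lower, and without tuSz1 replicate 3 e and CG11912 were not. These shares count reads and are not per length.

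**Figure D4:**
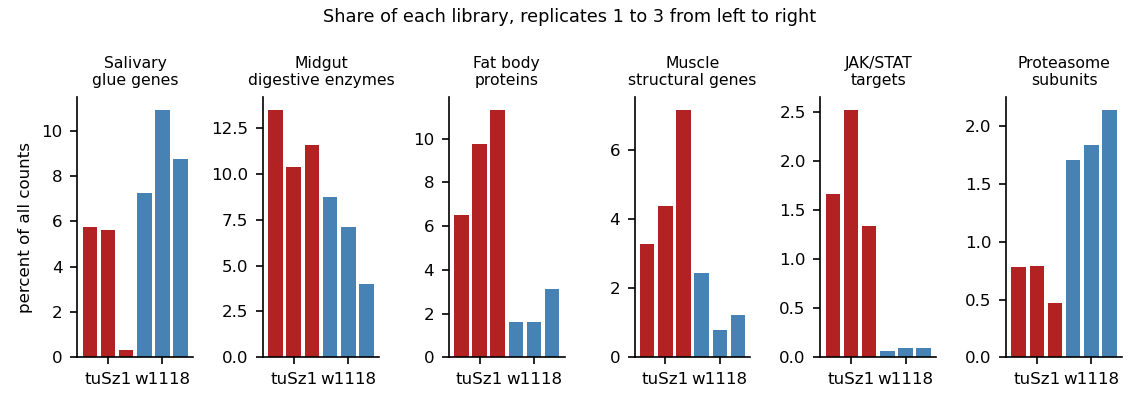
Percent of all counts of a library taken by 6 gene lists, 1 bar per library, tuSz1 left of w1118 and each panel with its own scale from 0. Digestive enzymes, fat body proteins, muscle genes and JAK/STAT targets took more in each tuSz1 library than in each w1118 library, and proteasome subunits less. The glue list was at 0.33% in tuSz1 replicate 3, most of it new-glue genes.

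Fat body proteins are secreted or stored for metamorphosis. Of 4 tested genes 3 were called higher, Lsp1gamma, Apoltp and apolpp, and 2 without tuSz1 replicate 3. The call of apolpp was lost in each of the 6 fits that left out a library. Lsp1gamma, a larval serum protein stored for metamorphosis, was at 47072, 74031 and 124200.0 CPM in tuSz1 and 7095, 5219 and 13530.2 CPM in w1118 (log2 fold change 3.25, SE 0.57, edgeR adjusted p = 0.00281). Its partner Lsp1alpha was at 27126, 41458 and 70442 CPM in tuSz1 and 5674, 6574 and 9666 CPM in w1118, without overlap, and was not called (edgeR adjusted p = 0.107). Apoltp, a lipid transfer particle, was at 243, 421 and 979 CPM in tuSz1 and 66.8, 55.8 and 103 CPM in w1118 (log2 fold change 2.87, SE 0.48, edgeR adjusted p = 0.00211). For the 3 genes replicate 3 was the highest tuSz1 library. Lsp2, Fbp1 and Fbp2, which belong to the late larva's fat body, were at or near 0 in all libraries, as was Lsp1beta. Each of them has 2 or 3 listed transcripts, against 1 for Lsp1alpha and Lsp1gamma. Whether counting per transcript lowered their values was not tested.

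Midgut digestive enzymes were next. Of 36 tested 14 were called higher and 1 lower (41.7% called, against 16.3% of all genes), with a median of 1.53. Without tuSz1 replicate 3 it was 8 and none. Without w1118 replicate 2 it was 5 and 1, and without w1118 replicate 3 it was 4 and none. Jon99Cii, a Jonah serine protease, was at 20025, 19118 and 27720.5 CPM in tuSz1 and 3669, 3399 and 2101 CPM in w1118 (log2 fold change 2.87, SE 0.46, edgeR adjusted p = 0.00154). Ser6, another protease of the gut, was at 60.2, 47.3 and 110.1 CPM in tuSz1 and 7.72, 3.13 and 3.26 CPM in w1118 (log2 fold change 3.94, SE 0.55, edgeR adjusted p = 6.28e-04). zetaTry, a trypsin, was at 425, 353 and 1031 CPM in tuSz1 and 105, 40.2 and 20.0 CPM in w1118, and was lost without tuSz1 replicate 3. The lower one was Jon99Ci, at 116, 109 and 46.8 CPM in tuSz1 and 325, 349.7 and 229 CPM in w1118. Reads may be shared among these similar genes. Under total count scaling 7 members were called higher and 3 lower, with a median of 0.74 where that of all genes was -0.70.

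CG18180 on 3L at 9641013 to 9641913 gained the most after Lsp1gamma, at 40430.3, 33552 and 59807 CPM in tuSz1 and 3623, 2587 and 1315 CPM in w1118 (log2 fold change 4.15, SE 0.58, edgeR adjusted p = 6.40e-04). Of 5 tested lysozymes, which digest bacterial walls in the larval gut, LysD was called higher, at 18.7, 13.9 and 40 CPM in tuSz1 and 1.25, 0.27 and 0.14 CPM in w1118. LysX was called lower, at 54.7, 69.3 and 21.6 CPM in tuSz1 and 121, 155 and 603 CPM in w1118. The LysX call was lost in 5 of the 6 fits that left out a library. Uro, the urate oxidase of the Malpighian tubules, was at 535, 608 and 1116 CPM in tuSz1 and 26.3, 25.1 and 22.4 CPM in w1118 (log2 fold change 4.94, SE 0.69, edgeR adjusted p = 9.36e-04). None of the other 5 tested tubule genes was called.

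The higher calls of muscle genes were not held by all libraries. Of 16 tested 3 were called higher and 1 lower, with a median of 1.36. Without tuSz1 replicate 3 none was called higher and 1 lower, with a median of 0.60. None was called higher without w1118 replicate 2 or w1118 replicate 3 either. Act57B, a muscle actin, was at 21559.9, 29695 and 78787 CPM in tuSz1 and 12284, 3513 and 5719.6 CPM in w1118. The call was lost in 4 of the 6 fits that left out a library. Zasp66, a Z-disc protein, was called lower, at 11.3, 16.2 and 19.8 CPM in tuSz1 and 26.8, 49.7 and 73.0 CPM in w1118.

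Enzymes that handle foreign compounds had members called in both directions. Of 63 tested cytochrome P450s 24 were called higher and 6 lower (47.6% called, against 16.3% of all genes). Without tuSz1 replicate 3 it was 19 and 4 of 65, where 10.6% of all genes were called. Cyp4p2 was at 27.8, 18.1 and 44.6 CPM in tuSz1 and 0.29, 0.93 and 0.43 CPM in w1118 (log2 fold change 5.72, SE 0.59, edgeR adjusted p = 8.64e-05). Cyp6a2, an enzyme tied to insecticide resistance, was at 38.1, 34.4 and 96.8 CPM in tuSz1 and 2.06, 0.53 and 1.45 CPM in w1118 (log2 fold change 5.38, SE 0.72, edgeR adjusted p = 5.58e-04). Cyp28a5 was the furthest in the other direction, at 2.38, 4.28 and 2.14 CPM in tuSz1 and 228, 176 and 135 CPM in w1118 (log2 fold change -5.92, SE 0.44, edgeR adjusted p = 6.21e-06). Of 26 tested glutathione transferases 8 (30.8%) were called higher and none lower, 7 without tuSz1 replicate 3. They included 5 neighbours of 1 gene row on 2R. GstE6 was at 149, 189 and 311 CPM in tuSz1 and 31.2, 18.4 and 14.9 CPM in w1118 (log2 fold change 3.33, SE 0.41, edgeR adjusted p = 2.39e-04). Of 22 tested UDP-glycosyltransferases 5 were called higher and 3 lower (36.4% called), and under total count scaling 4 and 5. It was 4 and 1 without tuSz1 replicate 3, with Ugt301D1 and Ugt36D1 no longer called, and over the 6 fits that left out a library 3 to 8 were called higher and 1 to 2 lower. Strain and mutation cannot be told apart here.

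Of 15 tested genes of glycolysis and sugar storage 5 were called higher and none lower, with a median of 1.85. Without tuSz1 replicate 3 it was 3, and without w1118 replicate 2 or w1118 replicate 3 it was 2. Tret1-1, a trehalose transporter, was at 241, 314 and 385 CPM in tuSz1 and 70.4, 60.8 and 66.0 CPM in w1118 (log2 fold change 2.25, SE 0.30, edgeR adjusted p = 4.31e-04). Ald1, an aldolase, was at 74.3, 96.0 and 138 CPM in tuSz1 and 42.6, 20.7 and 16.6 CPM in w1118. Of 15 tested lipid genes 4 were called higher and 1 lower, and 3 and 1 without tuSz1 replicate 3. Lip3, a lipase, was at 28.0, 20.1 and 23.7 CPM in tuSz1 and 1.40, 2.87 and 3.33 CPM in w1118 (log2 fold change 3.24, SE 0.50, edgeR adjusted p = 0.00129). FASN3, a fatty acid synthase, was lower, at 242, 276 and 280.0 CPM in tuSz1 and 458, 608 and 624 CPM in w1118.

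Of 13 tested insulin pathway genes 1 (7.69%) was called lower and none higher, against 6.33% of all genes called lower. It was Ilp6, an insulin-like peptide made by the fat body outside feeding, at 101, 121 and 104 CPM in tuSz1 and 153, 255 and 354 CPM in w1118 (log2 fold change -1.23, SE 0.30, edgeR adjusted p = 0.0165). The Ilp6 call was lost in at least 1 of the 6 fits that left out a library. Ilp8, which delays pupation after tissue damage, was at 0.86, 0.87 and 0.71 CPM in tuSz1 and 2.28, 90.5 and 2.53 CPM in w1118, so 1 control library stood out. Of 6 tested juvenile hormone genes, Jheh3, which breaks the hormone down, was called higher, at 839, 895 and 1755 CPM in tuSz1 and 197, 72.5 and 76.8 CPM in w1118 (log2 fold change 3.33, SE 0.53, edgeR adjusted p = 0.00154). Jheh1 was also called higher and Jhedup lower, calls lost in 1 and 4 of the 6 fits that left out a library.

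Of 57 tested mitochondrial ribosomal proteins 22 (38.6%) were called higher and none lower, against 9.98% of all genes called higher, with a median of 0.79. It was 5 without tuSz1 replicate 3, 12 without tuSz1 replicate 2, 3 without w1118 replicate 2 and 7 without w1118 replicate 3. Under total count scaling none was called higher and 1 lower. The list median there lay 0.69 above that of all genes, against 0.71 under TMM, a distance that a change of scaling hardly affects. mRpS35 was at 63.8, 74.2 and 130.5 CPM in tuSz1 and 42.3, 28.1 and 19.3 CPM in w1118. Nuclear respiratory chain genes had 9 of 35 called higher, 4 without tuSz1 replicate 3, 2 without w1118 replicate 2 and 3 without w1118 replicate 3. None of the 13 genes of the mitochondrial genome was called. Of 29 tested proteasome subunits 3 (10.3%) were called lower, against 6.33% of all genes, and none in 5 of the 6 fits that left out a library. Their median was -0.51, and their summed level was 8129 to 9317 CPM in tuSz1 and 13389 to 16076 CPM in w1118. Of 54 tested cytosolic ribosomal proteins 2 were called higher, and 1 of 57 without tuSz1 replicate 3.

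**Figure D5:**
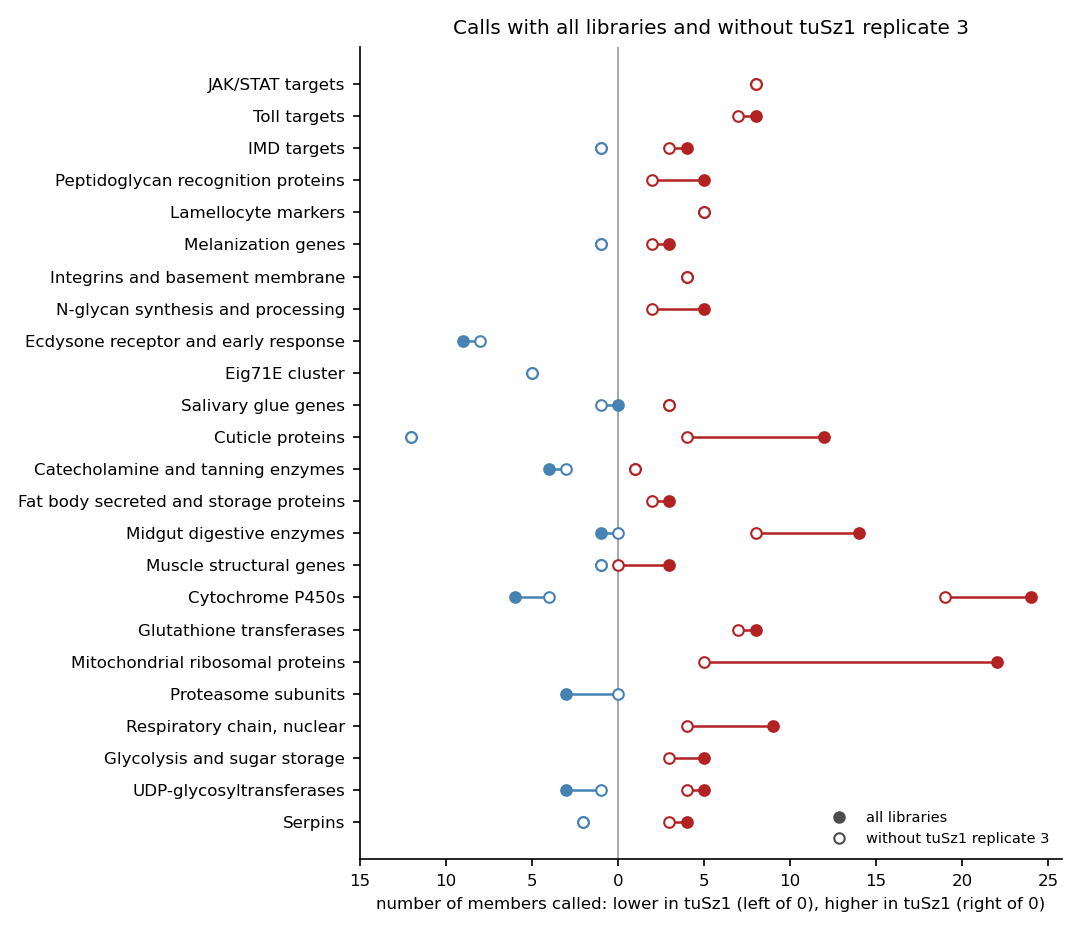
Number of members called higher in tuSz1 (right of 0) and lower in tuSz1 (left of 0) in 24 gene lists, with all libraries (filled) and without tuSz1 replicate 3 (open). The counts for JAK/STAT targets, lamellocyte markers and the Eig71E cluster were the same both ways, whereas mitochondrial ribosomal proteins had 22 and 5 called higher, cuticle proteins 12 and 4, and muscle genes 3 and 0.

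Of 14 tested serpins, inhibitors of protease cascades, 4 were called higher and 2 lower (42.9% called, against 16.3% of all genes). Without tuSz1 replicate 3 it was 3 and 2. Spn88Eb was at 518, 745 and 830.1 CPM in tuSz1 and 33.7, 32.0 and 115 CPM in w1118 (log2 fold change 3.54, SE 0.50, edgeR adjusted p = 6.71e-04). Spn100A was at 3.90, 1.57 and 8.22 CPM in tuSz1 and 392, 379 and 145 CPM in w1118 (log2 fold change -6.08, SE 0.72, edgeR adjusted p = 4.19e-04). Of 13 tested heat shock genes Hsp67Bc and Hsp67Ba (15.4%) were called lower and none higher, against 6.33% of all genes called lower. Hsp67Bc, a small chaperone, was at 35.7, 22 and 10.7 CPM in tuSz1 and 405, 483 and 1139 CPM in w1118. The 6 Hsp70 copies, known to be induced by heat, were not called. Of 15 tested odorant-binding proteins 3 were called higher and 2 lower (33.3% called). Without tuSz1 replicate 3 it was 3 and 3 of 17 tested. Of 7 pigment genes w, v and y were called higher, with the call of v lost without tuSz1 replicate 3, w1118 replicate 2 or w1118 replicate 3. Besides Tep1, the 3 other tested thioester-containing proteins were not called. No member was called among 10 tested neuronal genes, 20 testis genes, 16 genes of DNA replication and mitosis, and 2 sex-ratio RNAs. Without tuSz1 replicate 3, 1 testis gene was called higher, and the median of that list was 0.29 against 0.02 with it. The summed testis list was at 1274, 1343 and 650 CPM in tuSz1 and 1061, 915 and 826 CPM in w1118.

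Of the 12 genes with the highest fitted folds, 6 were TotZ, TotX, TotC, TotF, TotB and PPO3, and the other 6 carry CG numbers. CG44475 on 2L at 15882783 to 15883190, close to Tep1 in position, was at 888, 1761 and 1864 CPM in tuSz1 and 0.44, 0.40 and 0.29 CPM in w1118 (log2 fold change 11.92, SE 0.53, edgeR adjusted p = 1.59e-07). CG12522 and CG32071 lie within 1 stretch of 3L, from 11103421 to 11108732. CG12522 was at 111, 125 and 328 CPM in tuSz1 and 0 in w1118, at least 885-fold higher. CG32071 was at 947, 1401 and 2180.1 CPM in tuSz1 and 1.10, 1.00 and 0.72 CPM in w1118 (log2 fold change 10.63, SE 0.90, edgeR adjusted p = 2.86e-05). Both were highest in tuSz1 replicate 3 and were called without it. CG34278, CG33462 and CG6788 had log2 fold changes of 8.90, 8.31 and 8.18, with means of 667 ± 218, 417 ± 93.7 and 155 ± 34.2 CPM in tuSz1 against 1.39 ± 0.80, 1.29 ± 0.73 and 0.52 ± 0.18 CPM in w1118 (SD, n = 3 each).

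In the other direction CG7924 was at 0.67, 0.96 and 2.86 CPM in tuSz1 and 1681, 1243 and 1584 CPM in w1118 (log2 fold change -9.997, SE 2.23, edgeR adjusted p = 0.0237). lncRNA:CR33948 was at 0, 0.35 and 0 CPM in tuSz1 and 274, 73.1 and 309.7 CPM in w1118, and CG34206 at 0, 0.17 and 0.24 CPM in tuSz1 and 63.2, 68.4 and 142 CPM in w1118. For these 3 genes and CG9822 the call was lost in each fit that left out a tuSz1 library, although the groups did not overlap. CG12951, CG3502, CG33346 and CG5391 kept their calls in all 6 such fits. CG3502 was at 1.43, 1.57 and 0 CPM in tuSz1 and 149, 174 and 168 CPM in w1118 (log2 fold change -7.28, SE 0.86, edgeR adjusted p = 4.66e-04). CG5391 was at 27.9, 31.0 and 30.7 CPM in tuSz1 and 1463, 1353 and 3231 CPM in w1118 (log2 fold change -6.08, SE 0.65, edgeR adjusted p = 1.06e-04). All of these genes were low in every tuSz1 library.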

How the data were processed

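RNA from whole larvae was sequenced, and the authors deposited raw read counts per RefSeq transcript, which per the submitters' processing notes came from HISAT2 2.1.0 alignments to dm6 counted with featureCounts 1.6.3, after FastQC 0.11.8. The strand setting is not given in the sources used here. Counts were summed per gene symbol. Genes passing edgeR 4.0.16's expression filter were tested with its robust quasi-likelihood test (R 4.3.3) over all 9 libraries by genotype, with TMM scaling and Benjamini-Hochberg adjustment over all tested genes at 0.05. SE is the log2 fold change over the square root of its F. Intervals cover counting error only.

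The members and gene lists were chosen with earlier results of these data known, so no list is tested as a set. A list's counts are to be read against the shares of all genes called, 16.3% in all, 9.98% higher and 6.33% lower, and its median against 0.08. The genes named are the 12 highest and 12 lowest log2 fold changes among genes that were called, did not overlap and averaged 50 CPM or more in the higher genotype, the 10 largest gains and losses of mean CPM, at most 4 called members of each list with a mean of at least 5 CPM, members needed to describe a list, and hop, GCS1 and w; a selection of these is printed. Alternatives were DESeq2 1.42.0, other scalings, filters and sample sets, the replicate block, and leaving out each library. Coordinates are dm6.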

Additional observations from a re-analysis of the deposited data

How the results depend on the processing

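The 1485 calls included 1139 genes with 1 listed transcript. A fit of such genes alone called 959 of 6312 tested. Leaving out each library in turn gave between 786 and 1487 calls, with 786 when w1118 replicate 2 was left out. The share of called genes that were higher in tuSz1 was 48.6% with the 50 most counted genes left out of the scaling, 47.6% in a fit of the 6 libraries alone, 49.9% without a filter on low counts and 19.8% under total count scaling, against 61.2%. Total count scaling put the all-gene median at -0.70, so the medians of 20 of the 50 lists changed sign, among them those of integrins and basement membrane (-0.30), endoplasmic reticulum folding genes (-0.24), lysozymes (-0.050) and mitochondrial ribosomal proteins (-0.0070). Relative to all genes no list median changed sign, which a shift of similar size for all genes could hardly alter. With the replicate number as a replicate block 986 genes were called, 975 of them shared with the fit without it; the deviations of same-numbered libraries correlated at -0.29, 0.21 and -0.20, so the numbers were not taken to pair the samples. Genes near the floor of 3 counts and genes listed at 0 are limited by depth and by counting per transcript. Values of other genes with several listed transcripts may also hold only part of a gene's reads.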

Other observations

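The following 3 families were added after their values were seen, so their counts are descriptions. Of 17 tested neprilysin-like peptidases, which cut small peptides, 7 were called higher in tuSz1 and 1 lower, with a median log2 fold change of 1.17 against 0.08 over all genes, and 7 and none without tuSz1 replicate 3. Nepl10 was at 221, 319 and 697 CPM in tuSz1 and 14.0, 9.73 and 22.7 CPM in w1118. All tuSz1 values lay above those of w1118, with replicate 3 the highest.

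Of 5 tested Drosomycin-like genes, relatives of the antifungal peptide Drosomycin, 1 was called higher and 3 lower, and 1 and 1 without tuSz1 replicate 3. Drsl3 was at 12.3, 20.7 and 15.6 CPM in tuSz1 and 0.15, 0.67 and 0.65 CPM in w1118. Drsl2 was at 4.37, 10.4 and 0.71 CPM in tuSz1 and 193, 194 and 502 CPM in w1118, so these 2 members of the family differed in opposite directions in every library. Of 3 tested lysosomal alpha-mannosidases 2 were called higher, and 1 without tuSz1 replicate 3. LManVI lost its call in each of the 6 fits that left out a library, and LManIV without w1118 replicate 2.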
